A study of Drosophila melanogaster with 24 samples.

Results

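The genes described here are the annotated genes of Drosophila melanogaster chromosome 4, taken from the deposited gene tables with RpS3A left out and kept where their mean TPM (the transcript abundance measure of the deposited tables, scaled to a fixed total) over the libraries compared was at least 1. Apart from RpS3A, left out by name, mean TPM alone chose among the genes of this chromosome. The chromosome itself was taken up with earlier results of these data known, so its values as a set are described without a test. Of 104 such chromosome 4 genes in the tables of the midgut libraries, 57 were kept. Of 113 in the tables of the other libraries, 68 were kept for the Zn72d comparison and 67 for the E374A comparison. In all, 75 genes were kept in at least 1 comparison and 50 in every comparison. In the midgut libraries the genes nearest the threshold were onecut at 1.22 and CG31997 at 1.34 TPM inside it, and CG11155 at 0.953 and lncRNA:CR43956 at 0.892 TPM outside it. Between 3 and 4 of the genes kept in each comparison had a mean under 1 TPM in at least 1 of the 2 groups compared, and passed the threshold through the other libraries averaged with it.

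The series holds 24 RNA-seq libraries in 7 groups, and RNA was sequenced as 150-base read pairs. The midgut set holds 3 groups of 4 libraries, and all carry a temperature-sensitive driver of the progenitor gene esg, which marks gut stem cells and enteroblasts. The 3 groups are 10-day-old flies with a lacZ control construct, 30-day-old flies with the same construct, and 10-day-old flies with an Adar RNAi construct. The other set is labelled whole organism and holds 4 groups of 3 libraries, with no age given: flies labelled as overexpressing ADAR with the E374A change, their labelled wild type, flies with an RNAi construct against Zn72D, and their wild type. The extract protocol of all 24 libraries describes stem cells sorted from the midgut, and no label says whether replicates came from separate flies, so every p-value here is set by the spread among these libraries, which may be technical.

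Chromosome 4 is the smallest chromosome of the fly. Its genes lie in chromatin that carries heterochromatin marks and the protein HP1a, yet many of them are transcribed in most tissues. The protein Pof binds nascent transcripts of this chromosome, and the methyltransferase encoded by egg places the histone H3 lysine 9 methylation found along it. ADAR is the enzyme that converts adenosine to inosine in double-stranded RNA, the E374A form lacks that activity, and Zn72D is a zinc-finger RNA-binding protein. No nucleotide or protein sequence is printed, since no table of sequences was at hand.

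The labels were first checked against the targeted genes and against markers. Adar stood at 16.05, 11.2, 23.5 and 7.78 TPM in the Adar knockdown libraries and at 29.2, 37.5, 45.7 and 38.6 TPM in the 10-day lacZ libraries, with no overlap (log2 fold change -1.40 ± 0.31 SE, adjusted p = 0.0126, limma with Benjamini-Hochberg adjustment over all genes tested). Zn72D stood at 10.6, 17.9 and 15.999 TPM in its knockdown against 18.6, 18.1 and 16.9 TPM in the control, and did not pass the test (adjusted p = 0.471, limma). In the E374A set the Adar levels contradict the titles. Labelled control libraries 1 and 2 held 879 and 801 TPM, and those labelled overexpression held 17.2, 14.5 and 15.8 TPM. The library labelled control 3 held 31.5 TPM of Adar, came in the table format of the midgut set, held progenitor and digestive marker sums of 553 and 192 TPM, and was left out of the E374A comparison. The 3 libraries labelled overexpression matched the Zn72d control library of the same number, with between 83.2% and 83.6% of expressed genes equal in read coverage within 0.1%, where no other library pair passed 0.469%, so the E374A and Zn72d comparisons do not rest on separate libraries. The progenitor markers esg and Sox100B summed to between 465 and 1179 TPM in the midgut libraries. The same sum ran from 19.6 to 42.3 TPM in the 11 whole-organism libraries compared, where digestive enzymes summed to between 84961 and 126964 TPM. Among the midgut libraries, the 10-day lacZ libraries 3 and 4 were closer to each other (spread of log2 ratios 0.13) than 16 other pairs within groups (0.36 to 0.89), and the 30-day libraries 2 and 3 were also close (0.19).

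Chromosome 4 was set against the other autosomes in each library, as the median deviation of its members from a reference group on the log2(TPM + 1) scale minus the same median over genes of arms 2L, 2R, 3L and 3R. It is a description without a test, and a common scaling of all genes cancels in it on the log scale apart from the pseudocount of 1. Against the mean of the 10-day lacZ libraries, the 57 members stood at 0.18, -0.11, 0.02 and -0.05 in the 10-day lacZ libraries 1 to 4. They stood at -0.28, -0.31, -0.23 and -0.27 in the 30-day libraries, all below the lowest 10-day library. The library labelled E374A control 3, of no stated age, held -0.28 against the same reference, inside the 30-day range. The Adar knockdown libraries held -0.19, -0.09, -0.10 and -0.22, which overlap the 10-day lacZ range through library 2. Against the mean of the Zn72d controls, the 68 members stood at -0.05, 0.00 and 0.05 in the controls and at -0.45, -0.35 and -0.04 in Zn72d knockdown libraries 1 to 3. Library 3 of the knockdown therefore stood inside the control range, and libraries 1 and 2 stood below it. The libraries labelled E374A control 1 and 2, which carry the high Adar levels, held -0.54 and -0.43, and those labelled overexpression held -0.03, 0.00 and 0.05. The latter match the reference libraries of the same number in coverage, so their values near 0 were fixed in advance. Back-transformed, the members' median relative to the other autosomes was 0.686 and 0.744 times the Zn72d control level in the libraries labelled control 1 and 2. It was 0.731, 0.785 and 0.974 times that level in Zn72d knockdown 1 to 3 (TPM + 1 scale). The other autosomes had a shift of their own, of -0.36 and -0.15 in Zn72d knockdown 1 and 2. In bulk RNA, fewer cells that express these genes and less RNA per cell cannot be told apart.

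**Figure D1:**
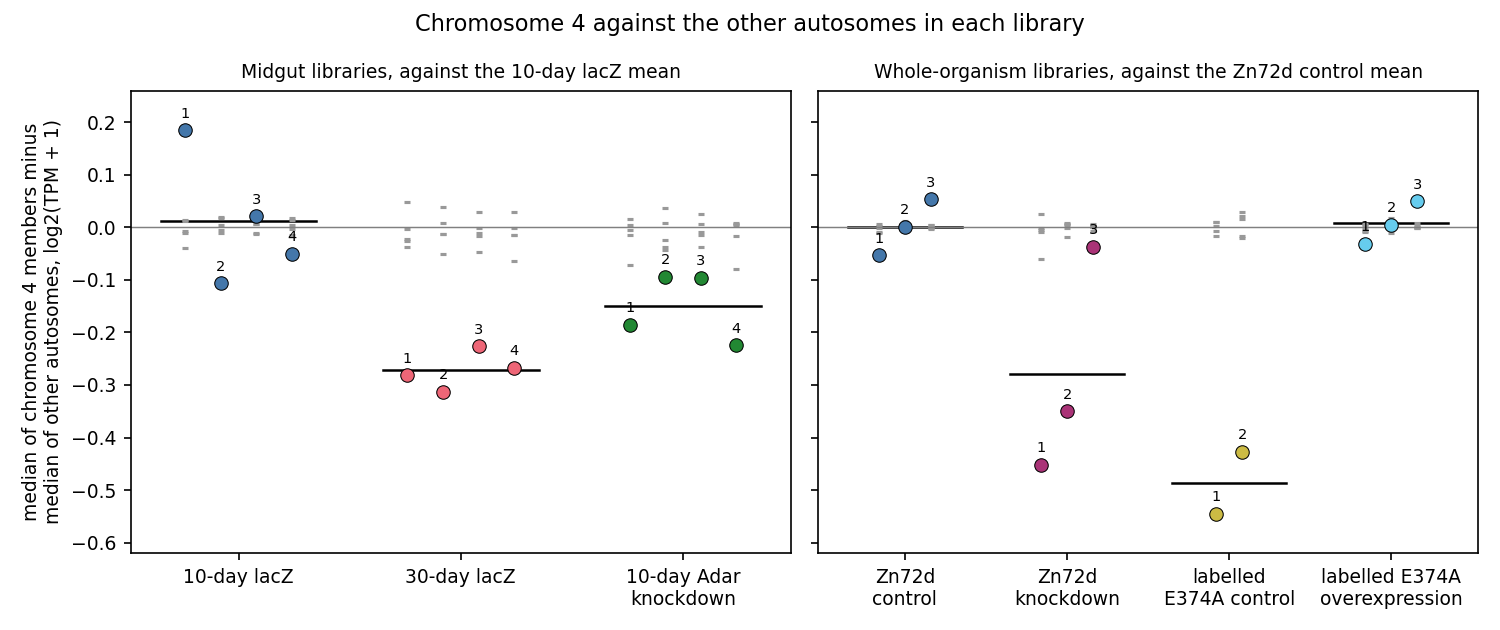
Median of chromosome 4 members minus the median of other autosomes in each library except labelled E374A control 3 (log2(TPM + 1) scale, points numbered by replicate, black line the group mean, grey dashes arms 2L, 2R, 3L, 3R and X). The 30-day libraries sit between -0.31 and -0.23, Zn72d knockdown 1 to 3 at -0.45, -0.35 and -0.04, and the libraries labelled E374A control at -0.54 and -0.43.

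The same order appears as fold changes over whole groups. The median log2 fold change of chromosome 4 minus that of the other autosomes was -0.22 at 30 days against 10 days, -0.07 after Adar knockdown, -0.29 after Zn72d knockdown and 0.52 in the labelled E374A comparison. The 4 other autosome arms and chromosome X each lay between -0.04 and 0.04 in all 4 comparisons. Members below the other autosomes' median numbered 41 of 57 at 30 days (50.6% of all genes tested were below it), 37 of 57 after Adar knockdown (50.7%) and 61 of 68 after Zn72d knockdown (50.7%). In the labelled E374A comparison 63 of 67 members lay above it (50.2% of all genes tested). The age and Adar comparisons share the 10-day lacZ libraries.

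**Figure D2:**
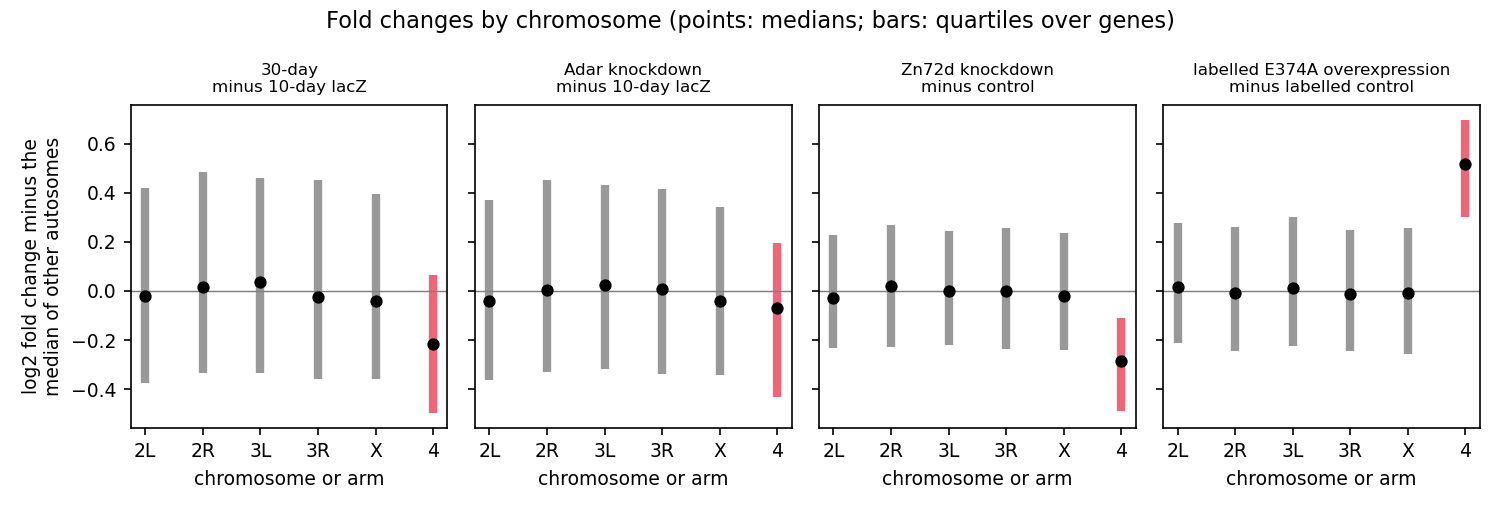
Log2 fold change of genes on each chromosome arm minus the median of arms 2L, 2R, 3L and 3R, in 4 comparisons (points: medians, bars: interquartile range over genes). Chromosome 4 stands at -0.22, -0.07, -0.29 and 0.52, and every other arm within 0.04 of 0.

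The first comparison asked how chromosome 4 expression differs between the midgut progenitors of flies at 30 and 10 days. On the deposited scale 15 of 57 members fell with age and 1 rose, where 15.4% of all genes tested fell and 4.23% rose. That scale had a shift of its own: the median log2 fold change over all genes was -0.32. After median-ratio scaling no member was called lower (3.18% of all genes were) and after centring on the other autosomes none was (2.49%), while CG1909 stayed called higher under both, alone after median-ratio scaling (5.76% of all genes rose) and beside Cadps after centring (8.11%). Groups did not overlap for 22 members that were lower (22.9% of all genes) and 1 that was higher (5.76%). The 15 calls therefore describe the deposited TPM. They include asRNA:CR45124, whose call supports nothing, for the reason given with that gene below. The median of the members lay below that of the other autosomes under each of the 4 other scalings tried. That was largely fixed in advance, since a common factor cancels in this difference apart from the pseudocount. Only quantile normalization is not a common factor. The count on the deposited scale also moved with single libraries: it was 4, 4 and 9 without 30-day library 2, 3 or 4, and 3 and 4 without 10-day library 3 or 4. The share of all genes called lower moved too, to 7.6%, 6.88% and 8.31% and to 6.26% and 7.03%.

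Among the genes for translation and RNA control, 3 of 6 fell and none rose on the deposited scale. These counts, like those of the age lists that follow, stand beside the 15.4% of all genes that fell, and every lower call among them is lost after median-ratio scaling or centring. eIF4G1, the scaffold of the cap-binding complex (FBgn0023213, dm6 chromosome 4 from 915297 to 930715, minus strand), held 57.3, 61.5, 57.2 and 53.9 TPM at 30 days and 148, 85.0, 118 and 94.6 TPM at 10 days. Every 30-day value lay below every 10-day value, and the narrow 30-day range contrasts with the wide 10-day one (log2 fold change -0.91 ± 0.19 SE, adjusted p = 0.00864, limma). gw, the GW182 protein of microRNA silencing, held 50.3, 28.5, 31.0 and 45.0 TPM against 60.0, 63.2, 107 and 90.3 TPM, again without overlap (-1.03 ± 0.27, adjusted p = 0.0208, limma). Slip1 fell from a mean of 50.6 ± 9.23 to 29.0 ± 2.77 TPM (SD, n = 4; log2 fold change -0.77, limma adjusted p = 0.0266). The other 3 did not pass the test: 4E-T, a partner of the cap-binding protein eIF4E, Gyf, and Rad23, a shuttle protein of the proteasome at 102 ± 12.6 against 110.3 ± 31.7 TPM.

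Of 10 measured transcription and chromatin genes 3 fell and none rose. Taf3, a subunit of the general factor TFIID, held 23.1, 31.2, 32.9 and 35.8 TPM at 30 days and 49.6, 42.8, 58.6 and 53.6 TPM at 10 days (-0.72 ± 0.19, adjusted p = 0.0215, limma). It overlaps asRNA:CR45126, which also fell, and without stated strand counting reads of the pair cannot be separated. Mitf, a factor for lysosomal genes, fell by 0.73 and pho, a DNA-binding Polycomb-group protein, fell by 0.64 on the log2 scale (adjusted p = 0.0442 and 0.0382, limma). The other 9 genes of this list, ci, ey, toy, Sox102F, sv, dati, NfI, fd102C and fuss, were under 1 TPM in the midgut libraries.

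Among 13 signalling and cytoskeletal genes 4 fell and none rose. Eph, the receptor tyrosine kinase for Ephrin, held 20.4, 16.4, 21.0 and 18.0 TPM at 30 days against 40.1, 24.4, 43.9 and 40.2 TPM at 10 days, with no overlap (-0.91 ± 0.25, adjusted p = 0.0270, limma). myo, a ligand of the TGF-beta family, fell from 27.6 ± 4.44 to 14.5 ± 3.09 TPM (SD, n = 4). The kinase genes Dyrk3 and Asator also fell. Asator was low, between 1.65 and 2.06 TPM at 30 days, and Dyrk3 overlapped between the ages.

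In the mitochondrial, transport and metabolic list 1 of 5 genes fell. This was Zip102B, a zinc transporter of the ZIP family, whose libraries were among the tightest: 17.0, 18.1, 18.1 and 19.3 TPM at 30 days and 30.7, 27.8, 31.7 and 31.6 TPM at 10 days (-0.71 ± 0.17, adjusted p = 0.0144, limma). ATPsynbeta, the catalytic beta subunit of ATP synthase and the most abundant member in these libraries, held 194, 218, 219.7 and 174 TPM against 329, 236, 286 and 259 TPM. Its groups did not overlap, but it did not pass the test (-0.46 ± 0.17, adjusted p = 0.0636, limma). ND-49, a subunit of respiratory complex I, overlapped at 118 ± 11.1 against 142 ± 26.2 TPM. In the neuronal and muscle list 0 of 3 measured genes were called, and 2 of 3 lay above the other autosomes' median.

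CG1909 was the member that went the other way (FBgn0039911, chromosome 4 from 583108 to 589348, plus strand). It held 4.88, 10.3, 9.60 and 9.98 TPM at 30 days and 3.57, 3.01, 2.58 and 1.25 TPM at 10 days. It was higher in every 30-day library (log2 fold change 1.43 ± 0.31, adjusted p = 0.0104, limma), and its call held under all 18 alternatives tried. The enteroendocrine marker list summed to between 1063 and 1978 TPM at 30 days and between 299.8 and 2617 TPM at 10 days, the highest value being 10-day library 1; 3 of its 10 genes rose with age. Whether cells of this type took part in the changes of CG1909 or of other members was not tested. The digestive enzyme list summed to between 165 and 749.6 TPM at 30 days and between 33.2 and 423 TPM at 10 days, with 2 of 12 genes called higher, and 2 of 5 neuronal and 1 of 6 fat-body markers were called higher. The progenitor markers summed to between 505 and 753 TPM at 30 days and between 575 and 1179 TPM at 10 days. Their part was not tested either. The remaining called genes were CG11076, which overlaps ATPsynbeta on the other strand, anne, and asRNA:CR45124, which overlaps PlexB and averaged under 1 TPM at 30 days. This antisense RNA passed the filter on mean TPM only through the other midgut libraries, where its mean is higher. Its lower call is therefore a description and supports nothing, although the count of members that fell with age includes it.

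**Figure D3:**
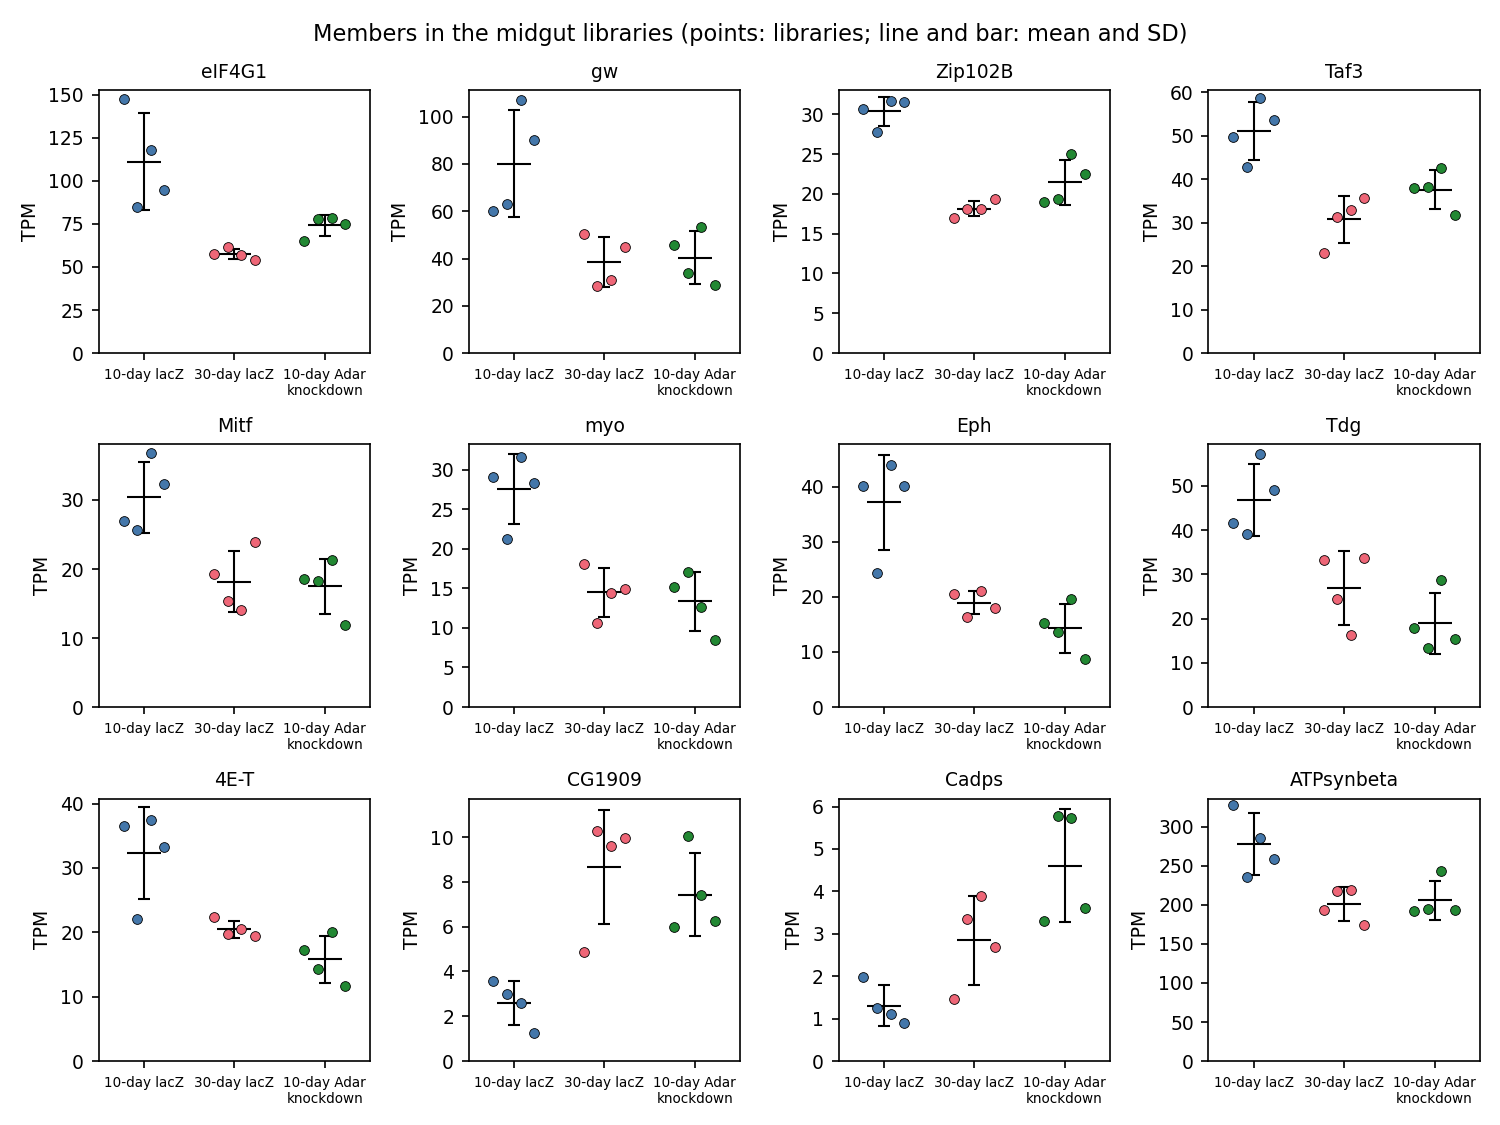
TPM of 12 chromosome 4 members in the midgut libraries (points: libraries, n = 4 per group; line and bar: mean and SD). Zip102B, Taf3, Eph and eIF4G1 sit lower in every 30-day library than in any 10-day lacZ library, and CG1909 sits higher.

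The second comparison asked what Adar knockdown changed at 10 days. On the deposited scale 15 of 57 members fell and 2 rose, where 16% of all genes tested fell and 3.74% rose. All genes together had a median log2 fold change of -0.39. After median-ratio scaling 2 members were called lower (1.58% of all genes) and 2 higher (4.63%), and the same counts came from centring on the other autosomes (1.3% and 6.44%). The genes called under both were Eph, Tdg, Cadps and CG1909. Groups did not overlap for 20 members that were lower (18.3% of all genes) and 2 that were higher (3.91%).

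Eph (FBgn0025936, chromosome 4 from 610684 to 622470, plus strand) held 15.2, 13.7, 19.6 and 8.74 TPM after knockdown against 40.1, 24.4, 43.9 and 40.2 TPM in the lacZ libraries, without overlap (-1.33 ± 0.25, adjusted p = 0.00828, limma). Tdg, the thymine DNA glycosylase gene (FBgn0026869, from 538332 to 557854, minus strand), held 17.9, 13.4, 28.8 and 15.5 TPM against 41.7, 39.2, 57.1 and 49.2 TPM, also without overlap (-1.31 ± 0.28, adjusted p = 0.0112, limma). Both calls held under all 18 alternatives. The span of Tdg overlaps that of zfh2 at one end and takes in lncRNA:CR43958 at the other. Both fell too on the deposited scale, and reads in the shared stretches cannot be assigned with certainty.

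Of the 13 signalling and cytoskeletal genes 6 fell on the deposited scale, where 16% of all genes did: Eph with its ligand gene Ephrin, the semaphorin receptor gene PlexB, myo, Asator and Ank, which encodes an ankyrin. Of these Eph alone was still called lower after median-ratio scaling or centring, and the calls in the next lists were lost there. Ephrin held 12.5, 16.1, 16.7 and 16.9 TPM against 26.2, 22.1, 33.1 and 27.6 TPM, so receptor and ligand were each lower in 4 of 4 knockdown libraries (Ephrin -0.76 ± 0.19, adjusted p = 0.0198, limma). The related receptor gene PlexA did not pass the test, at 21.8 ± 7.94 against 35.1 ± 4.67 TPM (adjusted p = 0.0627, limma). In the transcription list zfh2, a zinc-finger homeodomain factor, pan, the TCF factor of Wnt signalling, and Mitf fell. For pan the knockdown libraries ran from 1.33 to 7.43 TPM and the lacZ libraries from 8.41 to 16.6 TPM. Of the 6 translation and RNA genes 2 fell, 4E-T (-0.99 ± 0.22, adjusted p = 0.0137, limma) and gw (-0.97 ± 0.27, adjusted p = 0.0263, limma). eIF4G1 lay lower without overlap at 74.1 ± 6.31 against 111 ± 28.0 TPM and missed the threshold (adjusted p = 0.0522, limma).

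Cadps, which primes dense-core vesicles for release, held 3.31, 5.78, 5.72 and 3.61 TPM after knockdown against 1.992, 1.24, 1.11 and 0.897 TPM (1.27 ± 0.31, adjusted p = 0.0185, limma). CG1909 held 5.99, 10.0, 7.43 and 6.26 TPM against the 10-day lacZ values given above (1.25 ± 0.31, adjusted p = 0.0197, limma). Both were higher in every knockdown library. Leaving out 10-day lacZ library 3 or 4 left 0 members called higher, and 2 and 4 called lower, beside 3.44% and 3.48% of all genes. Without knockdown library 1, 2 or 4 the members called lower numbered 9, 6 and 7, beside 12.5%, 7.97% and 8.08% of all genes. Those called higher numbered 1 without knockdown library 2, and 3 without knockdown library 3 or 10-day lacZ library 2. The digestive enzyme list, whose genes mark enterocytes, summed to between 229.6 and 1143 TPM after knockdown and between 33.2 and 423 TPM in the lacZ libraries, and 5 of its 12 genes rose; its part in the changes of the members was not tested.

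The third comparison asked what knockdown of Zn72D changed. Of 68 members 1 passed the test, higher, and 0 were called lower by limma, where 0.885% of all genes tested rose and 1.24% fell. At an unadjusted p under 0.05, 27 members were lower and 2 higher, against 13.7% and 6.03% of all genes tested. Groups did not overlap for 27 members that were lower (19.8% of all genes) and 3 that were higher (8.53%). The count rested on 1 library: without knockdown library 3, 17 members fell (5.47% of all genes tested) and 1 rose (1.51%).

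anne held 32.5, 50.5 and 76.7 TPM in knockdown libraries 1 to 3 against 96.9, 108 and 92.1 TPM in the controls (-0.96 ± 0.28, adjusted p = 0.131, limma). Ephrin held 10.9, 13.9 and 22.6 TPM against 27.0, 29.0 and 28.3 TPM (-0.85 ± 0.25, adjusted p = 0.136, limma). eIF4G1 held 63.7, 111 and 155 TPM against 168, 173 and 173 TPM (-0.73 ± 0.28, adjusted p = 0.215, limma). In each of these genes the knockdown libraries lay below all controls, library 3 nearest to them. The same order held for Taf3, at 11.1, 21.2 and 26.8 against 34.3, 37.2 and 32.6 TPM, for MED26, a Mediator subunit, at 13.6, 19.2 and 30.5 against 33.9, 37.7 and 34.7 TPM, and for bt, the giant muscle protein projectin, at 6.38, 17.7 and 22.3 against 24.4, 26.7 and 28.7 TPM. By list, 10 of 10 transcription genes, 6 of 6 translation genes, 15 of 15 signalling genes and 4 of 5 neuronal and muscle genes lay below the other autosomes' median. None of them was called, and lists of genes chosen on this chromosome give no evidence apart from the chromosome itself.

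The mitochondrial and transport list did not share this: 4 of 7 genes lay below the median. ATPsynbeta held 1265, 1422 and 1408 TPM against 1182, 1126 and 1089.8 TPM, higher in all 3 knockdown libraries but not past the test (0.27 ± 0.14, adjusted p = 0.298, limma). ND-49 overlapped at 147 ± 21.6 against 149.6 ± 4.79 TPM (SD, n = 3). apolpp, the precursor of the lipid carrier lipophorin and a fat-body marker, held 2.63, 2.501 and 2.55 TPM against 1.28, 1.002 and 0.345 TPM (0.96 ± 0.23, adjusted p = 0.0826, limma), and was called after median-ratio scaling, which made 2 members called higher (1.39% of all genes). Its control mean was under 1 TPM, so it was tested only through the knockdown group, where it is high, and its call is a description. The summed fat-body list ran from 41.7 to 85.2 TPM in the controls. It held 142.8, 175.8 and 155.5 TPM in knockdown libraries 1 to 3. The muscle list, which includes bt, summed to between 1406 and 1534 TPM in the controls and between 1600.1 and 2020 TPM in the knockdown. The part of fat-body and muscle cells in the values of the members was not tested.

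The gene that rose was asRNA:CR44031 (FBgn0264823, chromosome 4 from 1027863 to 1029359, plus strand). It held 3.34, 10.5 and 3.80 TPM after knockdown and 0.0153, 0 and 0 TPM in the controls (adjusted p = 0.00732, limma). No fold is given against a group at or near 0. It passed the filter on mean TPM only through the knockdown group, where it is high, so this call is a description and supports nothing. It lies antisense to Mpv17, whose minus-strand span from 1028675 to 1029361 it nearly covers, and Mpv17 held 48.0, 20.1 and 39.6 TPM against 32.6, 37.3 and 32.0 TPM. Among these knockdown libraries, the library with the most antisense RNA held the least Mpv17. Since strand handling is not given in the sources used here, reads of the pair cannot be told apart. The antisense RNA was also listed at 0 in 10-day lacZ libraries 1, 3 and 4 and at 4.98 TPM in library 2. After Adar knockdown it held 5.43, 8.32, 1.96 and 4.17 TPM (adjusted p = 0.0594, limma). Mpv17 held 8.68, 13.3, 3.14 and 6.68 TPM there, highest in library 2 and lowest in library 3, as the antisense RNA was. In labelled E374A controls 1 and 2 the order was opposite: 3.87 and 30.3 TPM of antisense RNA, 37.4 and 21.7 TPM of Mpv17. A relation between the pair was not tested.

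The E374A comparison follows the titles, which the Adar levels go against. Of 67 members 0 were called higher and 0 lower by limma, where 2.67% of all genes tested were called higher and 1.19% lower in the libraries labelled overexpression. At an unadjusted p under 0.05, 15 members were higher and 1 lower, against 7.24% and 10.2% of all genes tested. Groups did not overlap for 31 members that were higher in the libraries labelled overexpression (12.2% of all genes) and for 2 that were lower (24.2%). After centring each library on the other autosomes, 14 members were called higher (4.58% of all genes tested) and 1 lower (1.78%), and median-ratio scaling gave the same counts (4.48% and 1.55%). With 1 labelled control left out, the fit sets a single library against 3, takes all its spread from the libraries labelled overexpression and assumes that the lone control varies as they do. On those terms, without control 2 there were 23 members called higher (7.48%), and without control 1 there were 5 higher (5.32%) and 2 lower (27%).

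PMCA, the plasma membrane calcium pump, came nearest to the threshold. It held 126, 106 and 129 TPM in the libraries labelled overexpression and 65.3 and 77.1 TPM in those labelled control (0.75 ± 0.19, adjusted p = 0.0699, limma). CG31997 held 13.1, 11.7 and 14.0 TPM against 7.48 and 6.14 TPM (0.84 ± 0.24, adjusted p = 0.114, limma), and bt held 24.2, 26.5 and 28.5 TPM against 12.7 and 17.2 TPM (0.79 ± 0.22, adjusted p = 0.109, limma). eIF4G1 held 172, 177 and 176 TPM against 93.7 and 139 TPM, Ephrin 29.4, 30.9 and 29.9 TPM against 13.5 and 23.01 TPM, and myo 33.3, 28.6 and 25.5 TPM against 14.8 and 21.3 TPM. In each of these genes the 2 labelled controls lay below all 3 other libraries, control 1 lower than control 2 except in CG31997.

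In this comparison all 10 measured transcription genes, all 6 translation genes, all 15 signalling genes and all 6 mitochondrial and transport genes lay above the other autosomes' median. Of the 5 measured neuronal and muscle genes, 4 lay above that median. The 4 members below it were Rnf11, CG33521, dpr7 and asRNA:CR44031. dpr7, an immunoglobulin-domain protein of neurons, held 1.43, 1.85 and 0.874 TPM against 2.08 and 2.16 TPM. The antisense RNA held 0.0227, 0 and 0 TPM in the libraries labelled overexpression and 3.87 and 30.3 TPM in those labelled control. It passed the filter on mean TPM only through the libraries labelled control, where it is high. Any lower call of it, under any setting, is therefore a description and supports nothing. ATPsynbeta overlapped, at 1180.0, 1127 and 1090.4 TPM against 1207 and 1078 TPM. The fat-body list summed to 59.3 TPM in labelled control 1 and to 974 TPM in labelled control 2. The libraries labelled overexpression ran from 41.4 to 81.4 TPM. The part of fat-body cells in the chromosome 4 values was not tested. With all 6 libraries as labelled, chromosome 4 stood 0.67 above the other autosomes over 64 members, and 0 were called higher and 0 lower (0.283% and 0.034% of all genes tested).

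**Figure D4:**
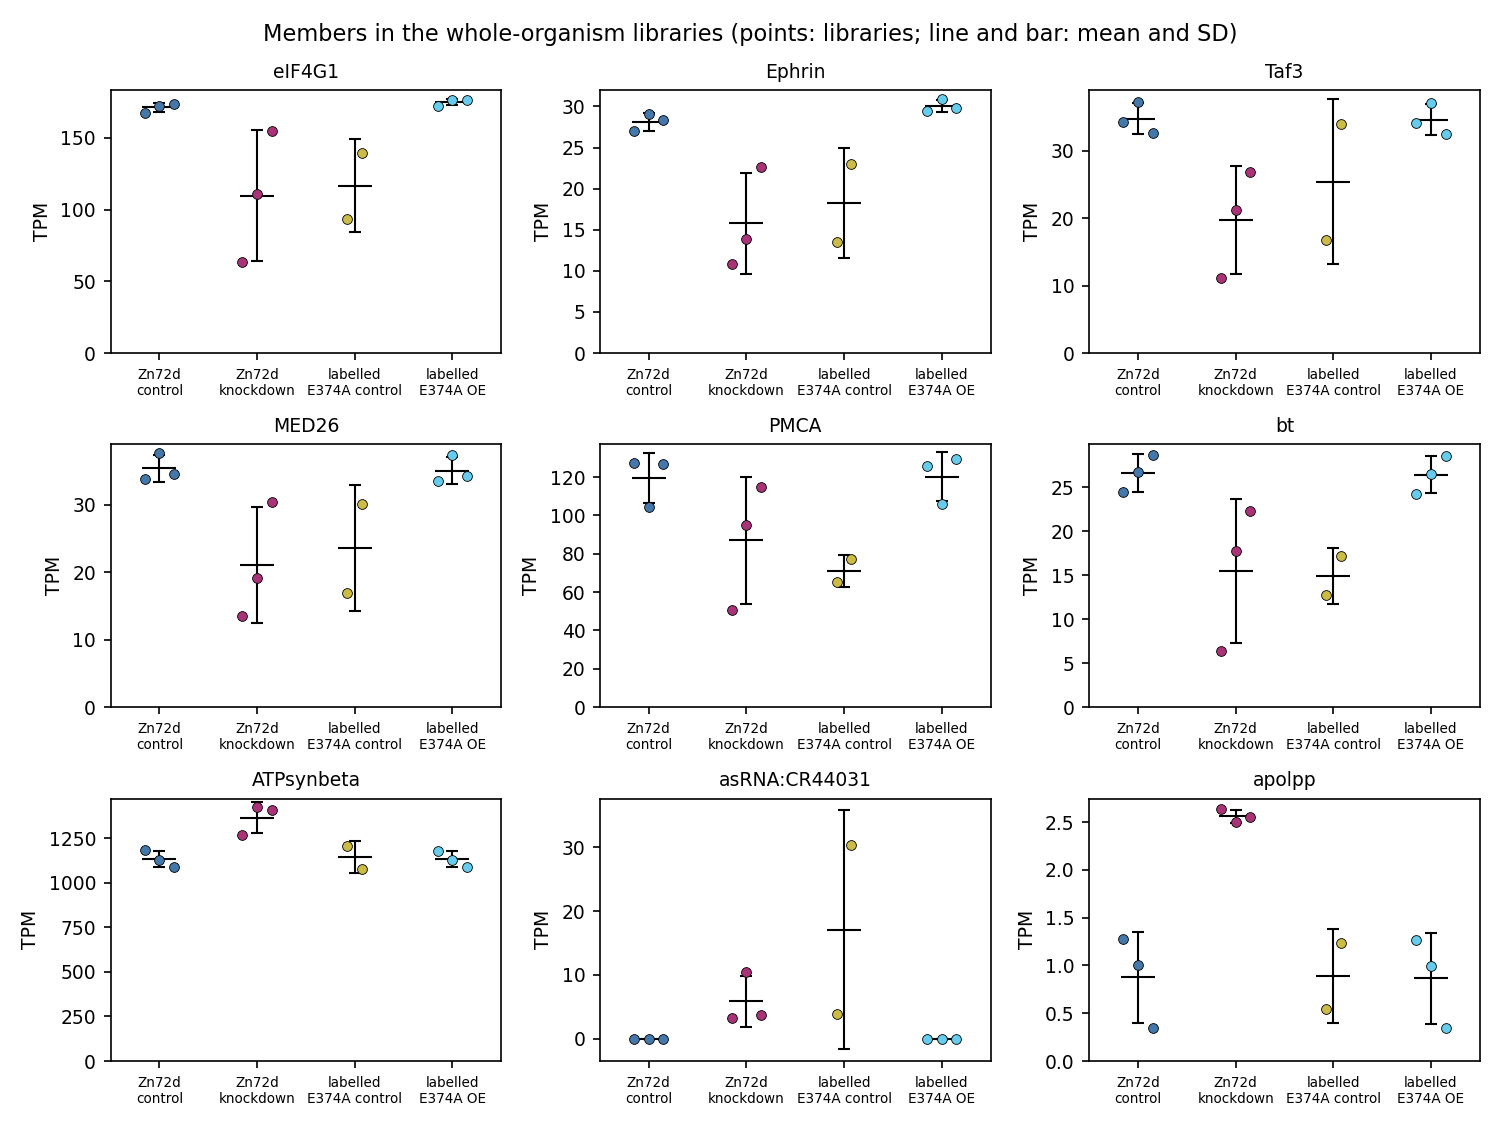
TPM of 9 chromosome 4 members in the whole-organism libraries (points: libraries; line and bar: mean and SD; OE stands for overexpression; labelled E374A control 3 is not shown, so n = 2 there and 3 elsewhere). eIF4G1, Ephrin and bt sit lower in every Zn72d knockdown and labelled E374A control library than in the other libraries, and asRNA:CR44031 is at or near 0 in the Zn72d controls and the libraries labelled overexpression.

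The members were then described along the chromosome. Members were ordered by position and cut into 4 segments of equal gene number. The median against the other autosomes was below 0 in every segment of both libraries labelled E374A control and of Zn72d knockdown 1 and 2. Those libraries already had a low chromosome 4 median, so low segments were likely in advance. In Zn72d knockdown 3 the segments held 0.01, -0.04, -0.19 and 0.07. In labelled control 1 the segments held -0.53, -0.52, -0.75 and -0.43, and in Zn72d knockdown 1 they held -0.44, -0.44, -0.85 and -0.15. Across the groups the 30-day segments held -0.29, -0.19, -0.23 and -0.23. The third segment, which runs from Ephrin through Eph, gw, bt and eIF4G1 to PlexA in these libraries, held the lowest value of Zn72d knockdown 1 and labelled control 1, whereas the last segment, from asRNA:CR44031 to Cadps, which holds ATPsynbeta, Mitf and Cals, had the value nearest to 0 in both. The other low libraries had another order. In labelled control 2 the segments held -0.56, -0.20, -0.47 and -0.41, lowest in the first and nearest to 0 in the second. In Zn72d knockdown 2 they held -0.34, -0.27, -0.44 and -0.29, lowest in the third and nearest to 0 in the second.

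**Figure D5:**
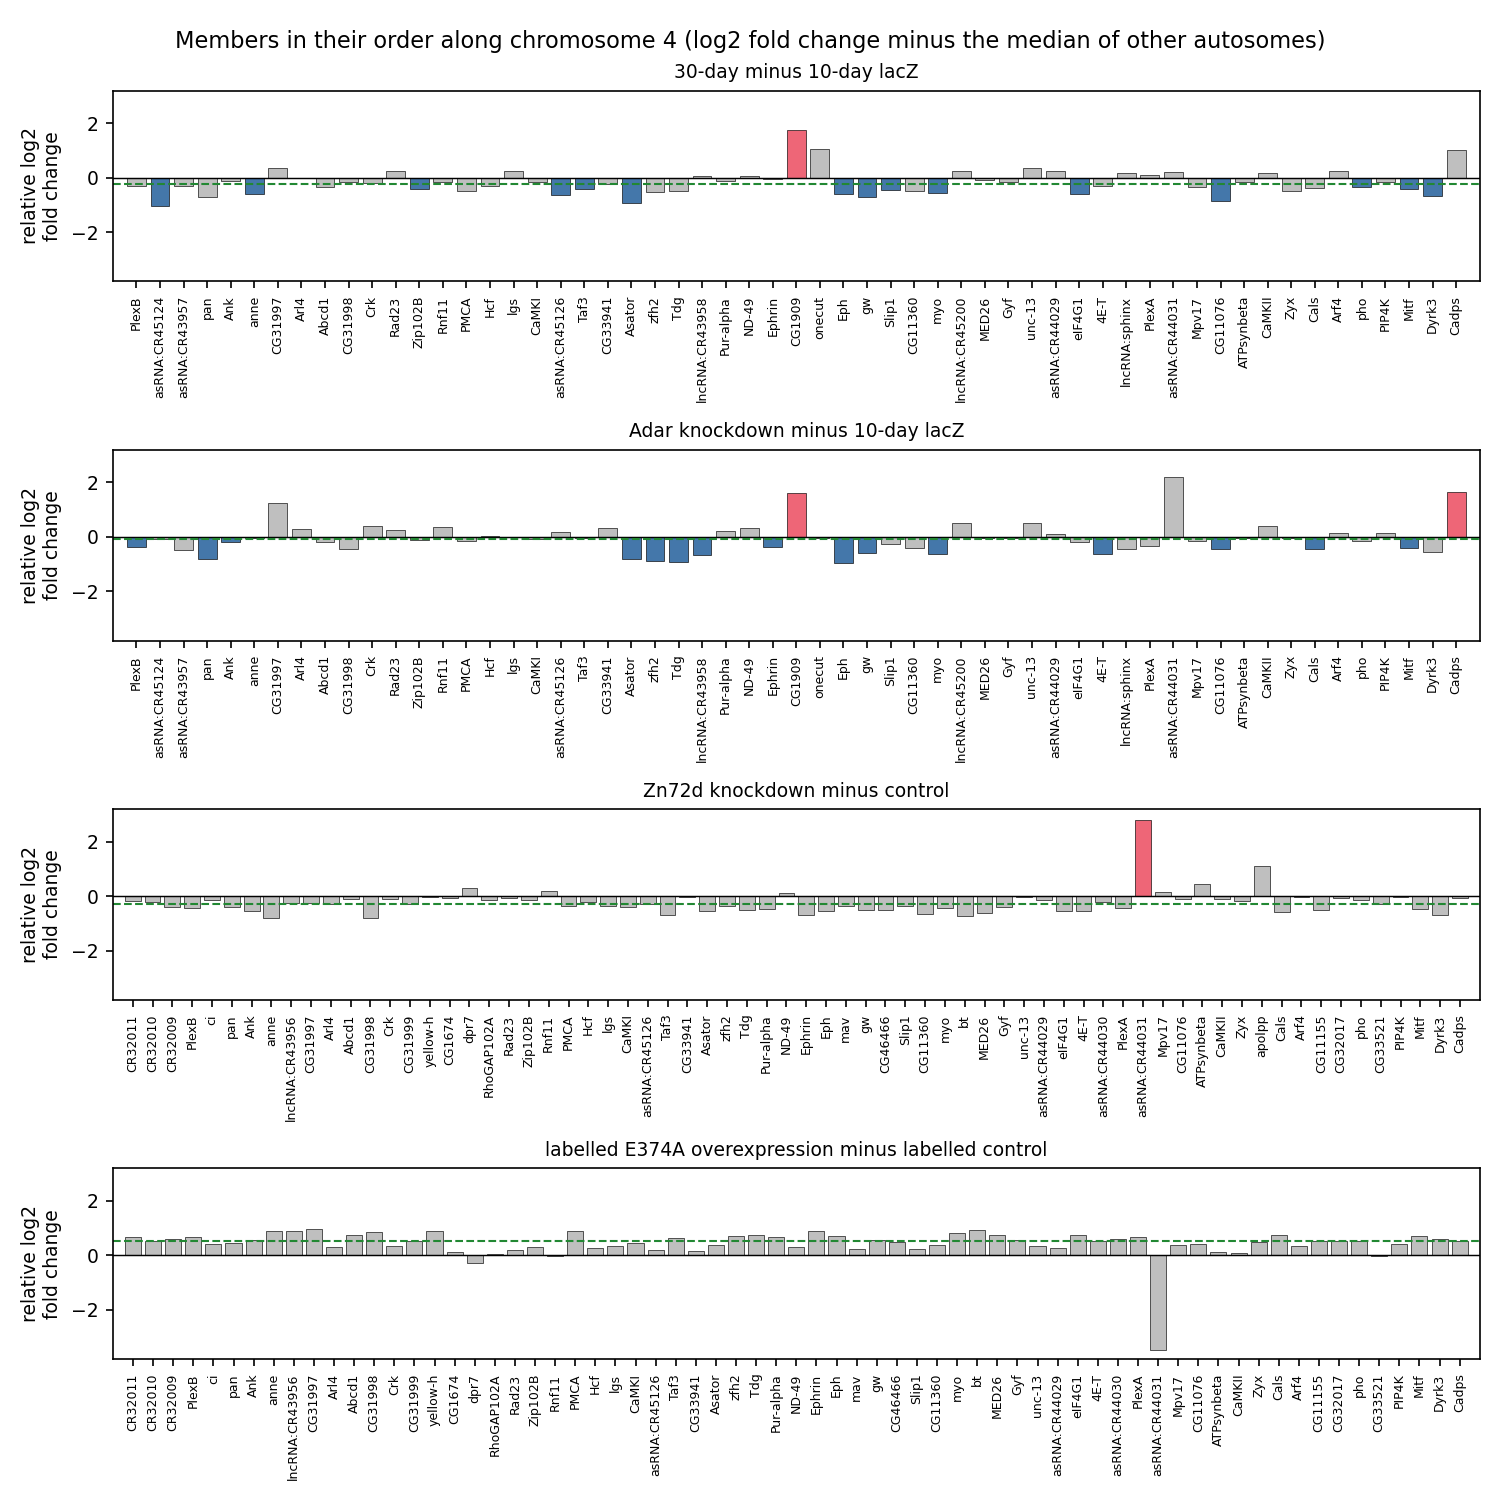
Log2 fold change of each member minus the median of other autosomes, with members in their order along chromosome 4 (evenly spaced, no distance scale), in 4 comparisons. Red and blue bars mark members called higher and lower by limma on the deposited scale, grey bars the others, and the green dashed line the median of members, at -0.22, -0.07, -0.29 and 0.52.

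Level and gene length were compared beside these values. In the labelled E374A comparison 34 of 34 members at or above the members' median TPM lay above the other autosomes' median. In the Zn72d comparison 31 of 34 lay below it (medians 0.57 and -0.41). Among members under the median TPM, 29 of 33 lay above it and 30 of 34 below it (medians 0.45 and -0.23). The higher and lower members by TPM stood at -0.19 and -0.29 at 30 days, and at -0.05 and -0.16 after Adar knockdown. Genes of chromosome 4 span more genome than genes of other autosomes, with a median of 9201 bases against 2510 in the Zn72d comparison. On the other autosomes, genes above the median span stood at -0.10 and those below it at 0.10 in the Zn72d comparison, and at 0.07 and -0.07 in the labelled E374A comparison. The members of chromosome 4 with a span above that median stood at -0.36 and those below it at -0.18 after Zn72d knockdown, and at 0.53 and 0.40 in the labelled E374A comparison. At 30 days the 46 long members stood at -0.29 and the 11 short ones at 0.06, whereas long genes on other autosomes stood at 0.03. The part of gene span in these values was not tested.

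Regulators of chromosome 4, a list of 15 genes located elsewhere, were measured in the same fits. Pof held 14.4 ± 2.35 TPM at 30 days and 23.6 ± 4.22 TPM at 10 days (SD, n = 4) and did not pass the test (adjusted p = 0.0716, limma), with no overlap between the ages. After Zn72d knockdown it held 5.54, 6.33 and 7.88 TPM against 8.82, 8.31 and 6.69 TPM (adjusted p = 0.495, limma), and in the labelled E374A comparison 8.76, 8.26 and 6.64 TPM against 7.70 and 9.95 TPM (adjusted p = 0.804, limma). In TPM, Pof in Zn72d knockdown 1 and 2, where chromosome 4 was low, lay below every other library of that comparison. The other autosomes were shifted down in those libraries too. Against their median Pof stood at -0.08 over the whole knockdown group. In the labelled E374A comparison Pof overlapped between the groups. Its part in the chromosome 4 values was not tested. Against the other autosomes' median, 14 of the 15 regulators lay lower at 30 days (50.6% of all genes tested) and 12 of 15 after Adar knockdown (50.7%). After Zn72d knockdown 11 of 14 lay lower (50.7%), and in the labelled E374A comparison 11 of 14 lay higher (50.2%). On the deposited scale 5 fell with age and 0 rose, beside the 15.4% and 4.23% of all genes tested: egg (-1.09 ± 0.27, adjusted p = 0.0181, limma), Su(var)3-7, Su(var)3-9, HP5 and the demethylase gene Kdm4A. After Adar knockdown 5 fell, JIL-1, ADD1, HP5, Su(var)3-7 and Su(var)3-9, and 0 rose, beside 16% and 3.74% of all genes tested. These calls depended on the processing. The age calls were lost in 4 of 10 other settings for egg, 3 for HP5 and 8 for Kdm4A. For Su(var)3-7 and Su(var)3-9 they were lost in 5. The Adar calls were lost in 9 for JIL-1, 8 for ADD1, 8 for HP5, 5 for Su(var)3-7 and 3 for Su(var)3-9. Of 14 measured regulators 0 were called in the Zn72d or the labelled E374A comparison.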

How the data were processed

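The submitters' processing notes name STAR 2.7.1a, StringTie and the dm6 build. Their settings, strand included, and the annotation release were not stated there. The authors deposited 1 gene table per library. In 11 tables the deposited TPM sum to 1000000. In the other 13, which hold assembled loci, the authors' TPM column sums to more and was treated as a signal, of which annotated genes were used without rescaling. The deposited coverage, with the FPKM the authors deposited, served to compare libraries and to estimate aligned bases, from 3.40 to 7.66 gigabases per library. Read counts were not used here, so no counting interval is given.

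Genes were tested with limma 3.58.1 in R 4.3.3 (trend and robust variances) on log2(TPM + 1), which understates changes of low genes, among genes with mean TPM of at least 1, two-sided, with Benjamini-Hochberg adjustment over 8745, 8478 or 8536 genes. Calls needed an adjusted p under 0.05. The midgut groups were fitted together. Members and lists were chosen with earlier results of these data known. Named genes are Adar, Zn72D, up to 15 called members per direction and comparison, or the 5 largest and 5 smallest where under 10 were called, measured list members, regulators and genes next to the threshold; the text gives a part. Mpv17, Rnf11 and CG33521 fall outside this rule and were chosen after their values were seen. Start and end of 114 chromosome 4 genes equalled those of Ensembl release 115. The fit was tested on simulated data. Alternatives were other scalings, pseudocounts, filters, a replicate block and leaving out libraries. Figures used matplotlib 3.10.9.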

Additional observations from a re-analysis of the deposited data

Results flagged for a closer look

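Of 120 sets of 4 libraries examined among the named genes, 9 held a library far from the other 3, where chance alone gives about 1 in 20 sets. ATPsynbeta stood at 243.15 TPM in 1 Adar knockdown library, against 192.01 to 194.93 TPM in the others of its group. Ank stood at 63.675 TPM in 1 of the 10-day lacZ libraries, with the others between 43.556 and 46.162 TPM. CG11076 stood high in 1 library at each age: at 418.65 TPM at 10 days, with the others between 182.42 and 218.4 TPM, and at 152.32 TPM at 30 days, with the others between 95.083 and 95.965 TPM. CG1909 stood low in 1 of the 30-day libraries, at 4.8766 TPM against 9.6001 to 10.252 TPM. Crk stood at 41.659 TPM in 1 of the 30-day libraries against 33.088 to 34.262 TPM. Among the regulators, HP5 stood low in 1 of the 10-day lacZ libraries, at 59.977 TPM against 93.256 to 98.931 TPM, and Su(var)3-7 stood high in 1 of the 30-day libraries, at 14.022 TPM against 11.003 to 11.513 TPM. The antisense RNA asRNA:CR45124 stood at 0.24378 TPM in 1 Adar knockdown library against 2.0222 to 2.3879 TPM.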

How the results depend on the processing

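The median of chromosome 4 against the other autosomes kept its sign in all 4 comparisons under every alternative run, while the counts of called members changed. For scalings by a common factor this was largely fixed in advance, because the factor cancels in the difference of medians apart from the pseudocount. With 1 library left out, the age median ran from -0.29 to -0.17 with 3 to 21 members called lower (6.26% to 17.1% of all genes) and 1 higher. The Adar median ran from -0.16 to -0.03 with 2 to 19 lower (3.44% to 19.5%) and 0 to 3 higher. The Zn72d median ran from -0.41 to -0.19 with 0 to 17 lower (0.331% to 5.47%) and 1 higher, and the labelled E374A median from 0.43 to 0.60 with 0 to 23 higher (1.77% to 7.48%) and 0 to 2 lower. Members called lower with age numbered 0 after median-ratio scaling (3.18% of all genes), 3 after quantile normalization (3.26%), 0 after centring on other autosomes (2.49%), 9 without the filter on low values (4.93%) and 4 with 10-day lacZ libraries 3 and 4 averaged (6.99%). Those called higher with age numbered 2 after centring (8.11%) and 2 without the filter (1.44%). Members called lower after Adar knockdown numbered 2 after median-ratio scaling, quantile normalization or centring (1.58%, 1.44% and 1.3%), 8 after rescaling annotated genes (8.15%), 8 without the filter (4.91%), 5 with only the 2 groups fitted (6.95%) and 3 with those libraries averaged (3.58%). Those called higher numbered 1 at a minimum mean TPM of 5 (3.19%) and 0 with the libraries averaged (1.42%). After Zn72d knockdown 2 were called higher under median-ratio scaling, quantile normalization or centring (1.39%, 1.45% and 1.47%), and 0 at a minimum mean TPM of 5, which leaves out asRNA:CR44031. In the labelled E374A comparison 14 were called higher after median-ratio scaling or centring (4.48% and 4.58%) and 11 after quantile normalization (4.01%), with 1 lower each (1.55%, 1.78% and 2.03%). A pseudocount of 0.1 and a minimum mean TPM of 5 each gave 1 lower (1.15% and 0.968%). The median there was 0.25 without the filter and 0.67 with all 6 libraries. Where no cause is named it was not tested. The TPM carry no counting error, so the precision of low genes rests on the spread of 2 to 4 libraries alone.

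Deviations of libraries from their group means had correlations from -0.30 to 0.25 at the same replicate number and from -0.31 to 0.37 at different numbers. In the age comparison the same-numbered pairs held 0.22, 0.12, -0.08 and 0.22. These few values do not settle whether the numbers pair libraries, and the main fits used no pairing. With the replicate block the age comparison called 1 member higher and 12 lower, Adar 2 and 11, Zn72d 2 and 1, and labelled E374A 0 and 1. The shares of all genes were 3.67% and 11.4% for age, 3.6% and 11.8% for Adar, and 2.92% and 1.64% for labelled E374A, and 169 and 251 of 8478 genes were called for Zn72d.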
